A study of Rattus norvegicus with 24 samples.

Results

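Lumbar dorsal root ganglia (DRG) of ovariectomized rats given teriparatide (TPTD) were compared with those of ovariectomized rats given vehicle. The 2 groups were taken as their titles name them and hold 8 rats each, 16 of the 24 rats of the series. Rats of the OVX-TPTD group were ovariectomized and received TPTD, the fragment of parathyroid hormone (PTH) from residue 1 to 34, under the skin at 30 µg/kg body weight, 3 times a week for 4 weeks. Those of the OVX-vehicle group were ovariectomized and received saline on the same schedule. The 8 Sham-vehicle rats, which had the ovaries exposed but left in place and received saline, are given as a second reference. All were Sprague-Dawley females operated at 12 weeks of age and 20 weeks old when L4-5 DRG were taken, with 4 weeks between surgery and the first injection. No intact rat received TPTD, so its values describe ovariectomized animals only. The 8 rats of a group had been selected for body weight and plantar test results near the average. Each group has 8 libraries for its 8 rats, and no pooling of animals is stated. For replicate 1 of the OVX-vehicle group the surgery label reads Sham although its title reads OVX. It was kept by its title, and some values are also given without it.

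Total counts per OVX-TPTD rat were 17506142 to 19069898, with a median of 18374919. Those per OVX-vehicle rat were 16466519 to 18770308, with a median of 16916534, so depth was somewhat greater with TPTD. Levels are given as FPKM, fragments scaled to transcript length and library size. Differences are log2 values from edgeR's quasi-likelihood fit of the counts, OVX-TPTD minus OVX-vehicle, with their standard error (SE), and the p beside a single gene is that of a two-sided exact permutation test of its log2(FPKM), without adjustment. The tissue showed its neuronal markers at high levels in both groups, with a median of 4597 FPKM in OVX-TPTD rats and 4556 FPKM in OVX-vehicle rats for the neurofilament gene Nefl. The 14 neuron markers tested had a median log2 difference of −0.01, and 0 of them had an unadjusted edgeR p under 0.05. The ganglia were measured whole, so that a change in the number of cells of a type and a change in RNA per cell cannot be told apart.

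In DRG the sensory neurons of the body have their cell bodies, each wrapped by satellite glial cells, beside axons with their Schwann cells, resident macrophages and vessels. TPTD acts on the PTH receptor PTH1R, which acts through G proteins on adenylyl cyclase and phospholipase C, the enzymes behind the second messengers cyclic AMP and calcium. Interferons are cytokines that drive a large and shared set of antiviral genes through a transcription factor complex of which IRF9 is a subunit. The complex binds a short repeated sequence, the interferon-stimulated response element, near the start of its target genes.

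No gene passed the edgeR test after adjustment. Of 12645 genes tested, 0 had an adjusted p under 0.05 in edgeR (0.0%), where the smallest adjusted p was 0.995. At an unadjusted edgeR p under 0.05, 247 genes were higher with TPTD (1.95% of those tested) and 215 were lower (1.7%). DESeq2 called 1 gene at an adjusted p under 0.05, the MHC gene RT1-CE16, and limma on log2(FPKM + 0.1) called 0. In the exact permutation test of log2(FPKM), 496 of 13024 entries had a two-sided unadjusted p under 0.05 (3.81%), and 0 passed after adjustment. With an absolute difference above 0.25 required as well, 116 were higher (0.891%) and 79 were lower (0.607%). Without OVX-TPTD replicates 6 and 7 the edgeR count at an unadjusted p under 0.05 was 1045 genes, and without OVX-vehicle replicate 1 it was 826, against 462 with all rats. A gene is said to stand higher or lower where its unadjusted edgeR p was under 0.05, which no adjusted edgeR p between these 2 groups was.

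Interferon-stimulated genes held the most higher genes of any list. In the list of 69 such genes, 59 entries were tested, 55 had a positive log2 difference and 32 had an unadjusted edgeR p under 0.05 in that direction, with 0 in the other. The next list by that count, the rat MHC genes, had 5. The interferon count is 54.2% of the list, beside 1.95% of all genes, and 13% of the 247 higher genes. The median log2 difference of the list was 0.31, beside −0.0020 over all genes tested, of which 6201 were positive. The list and the interest in it came from earlier results on the same rats, so these counts describe the list and are not a separate test of it.

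Many promoters of these genes hold the letters of the interferon-stimulated response element. The letters GAAANNGAAA, searched on both strands as the core of that element and allowed to overlap with each other, occurred from 250 bases before to 50 bases after the start in 29 of the 43 tested genes of the list that matched the RefSeq promoters by symbol (67.4%). They occurred in 16 of the 21 matched genes that stood higher at an unadjusted p under 0.05 (76.2%), and in 4.12% of all 27457 genes of the promoter table, each counted once. A match is a description of the letters and not a measured binding site. The list was drawn up as interferon-stimulated genes, so these shares describe the list and not a response to TPTD. The 21 genes are part of the 43, and whether the shares differ was not tested. The 150 bases before the start of 4 members are printed with the matching letters in capitals, because they are among the genes of the list with the largest differences and have a RefSeq promoter on build GRCr8. They are Ifit3 (chr1:241527176-241527325, plus strand), Oas1a (chr12:41330316-41330465, plus strand), Oas1i (chr12:41285076-41285225, plus strand) and Rsad2 (chr6:48788121-48788270, minus strand), each read 5′ to 3′ in the direction of its gene.
Ifit3: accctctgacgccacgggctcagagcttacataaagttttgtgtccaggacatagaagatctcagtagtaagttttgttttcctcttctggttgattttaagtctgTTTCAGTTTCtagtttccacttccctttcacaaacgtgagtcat
Oas1a: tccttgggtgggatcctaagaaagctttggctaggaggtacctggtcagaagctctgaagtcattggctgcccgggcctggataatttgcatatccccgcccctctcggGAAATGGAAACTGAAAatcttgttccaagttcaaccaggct
Oas1i: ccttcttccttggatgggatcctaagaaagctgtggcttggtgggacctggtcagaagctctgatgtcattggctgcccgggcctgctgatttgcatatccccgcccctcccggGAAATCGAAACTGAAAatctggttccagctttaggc
Rsad2: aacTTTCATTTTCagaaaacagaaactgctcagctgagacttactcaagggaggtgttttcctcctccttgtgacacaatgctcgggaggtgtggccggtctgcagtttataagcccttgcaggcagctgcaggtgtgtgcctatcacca
In Ifit3 and Rsad2 the capitals hold the core on the opposite strand, and in the 2 synthetase genes they hold a pair of overlapping copies. The Oas1a and Oas1i stretches share a run of 21 identical bases. Genes of this family are near-identical copies in places, so reads may have been split between them in the authors' counting.

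Within the list, the largest differences were in genes for the antiviral effectors. Ifit3, of a family of proteins that bind viral RNA, ranged from 0.803 to 4.68 FPKM in OVX-TPTD rats (median 1.54) and from 0.568 to 1.14 FPKM in OVX-vehicle rats (median 0.885). Usp18, the protease that removes the ubiquitin-like protein ISG15 from its targets and damps interferon receptor signalling, ranged from 1.96 to 13.6 FPKM in OVX-TPTD rats (median 4.18) and from 1.07 to 3.48 FPKM in OVX-vehicle rats (median 2.42). Isg15 itself ranged from 3.94 to 21.1 FPKM in OVX-TPTD rats (median 5.78) and from 2.53 to 5.68 FPKM in OVX-vehicle rats (median 4.31). In each of these 3 genes the ranges of the groups overlapped, and 5, 4 and 4 of the 8 OVX-TPTD rats lay above the highest OVX-vehicle rat. Their log2 differences were 1.30 (SE 0.32, exact p = 0.0124), 1.35 (SE 0.37, exact p = 0.0315) and 1.18 (SE 0.33, exact p = 0.0168). The synthetase genes that make the activator of the antiviral nuclease RNase L were at 1.10 (SE 0.34, exact p = 0.0424) for Oas1a and 0.86 (SE 0.22, exact p = 0.00326) for Oas1i. Against the Sham-vehicle group, where Usp18 had a median of 1.88 FPKM and Isg15 one of 3.55 FPKM, the OVX-vehicle group had log2 differences of −0.01 and 0.04 in these genes.

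Much of the height came from 2 rats. Usp18 was at 11.7 and 13.6 FPKM in replicates 6 and 7, and 1.96 to 6.21 FPKM in the other 6 OVX-TPTD rats. Rsad2, which encodes the antiviral enzyme viperin, was at 7.18 and 9.53 FPKM in replicates 6 and 7, and 1.52 to 3.21 FPKM in the other 6 OVX-TPTD rats. Mx1, an antiviral GTPase, was at 19.4 and 18.3 FPKM in replicates 6 and 7, and 4.45 to 8.91 FPKM in the other 6 OVX-TPTD rats. In 45 of the 59 entries the highest of the 16 rats was 1 of these 2. Averaged over the list on the log2 scale and set relative to the OVX-vehicle mean, replicates 6 and 7 stood at 0.86 and 0.93, while the highest OVX-vehicle rat stood at 0.20 and the highest Sham-vehicle rat at 0.35. The lowest OVX-TPTD rat was at −0.08, within the OVX-vehicle range. Replicates 6 and 7 are labelled like the other rats of their group.

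With those 2 rats left out the list was smaller in its difference and still mostly positive. In that fit 48 of 59 entries had a positive log2 difference, the median was 0.17, and 8 entries (13.6%) had an unadjusted edgeR p under 0.05, beside 3.72% of all genes in the same fit. These were B2m (0.21), the light chain of MHC class I molecules, 2 entries of Oas1i (0.47 and 0.50), Ifit3 (0.60), the nuclear body gene Sp100 (0.34), the immunoproteasome subunit gene Psmb8 (0.39), Ifit2 (0.26) and Zbp1 (0.43), a sensor of nucleic acids. Usp18 and Isg15 had log2 differences of 0.62 and 0.46 without the 2 rats. Among replicates 1 to 4 alone the list median was 0.11, and among replicates 5 to 8 it was 0.40. Without OVX-vehicle replicate 1 it was 0.31.

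Among signalling members, Irf9 differed less than the effectors. It had medians of 18.1 FPKM in OVX-TPTD rats and 16.3 FPKM in OVX-vehicle rats and a log2 difference of 0.18 (SE 0.074, exact p = 0.0729). Irf7, the factor that amplifies type I interferon production, was at 0.88 (SE 0.32, exact p = 0.137), with 23.8 FPKM in replicate 7 and at most 6.56 FPKM in the OVX-TPTD rats other than 6 and 7. The viral RNA sensor genes Ddx58 and Ifih1 were at 0.54 and 0.37. In antigen presentation the members were uneven, with 0.43 (SE 0.14, exact p = 0.00839) for Psmb8, 0.13 for B2m and −0.12 for tapasin (Tapbp). Ifit3, Usp18, Isg15, Oas1a, Oas1i and Sp100 were named by rules that rank genes on their p or difference in these same rats. Other members of the list were named after their values had been seen. In both cases the p values belong to genes picked on these data.

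**Figure D1:**
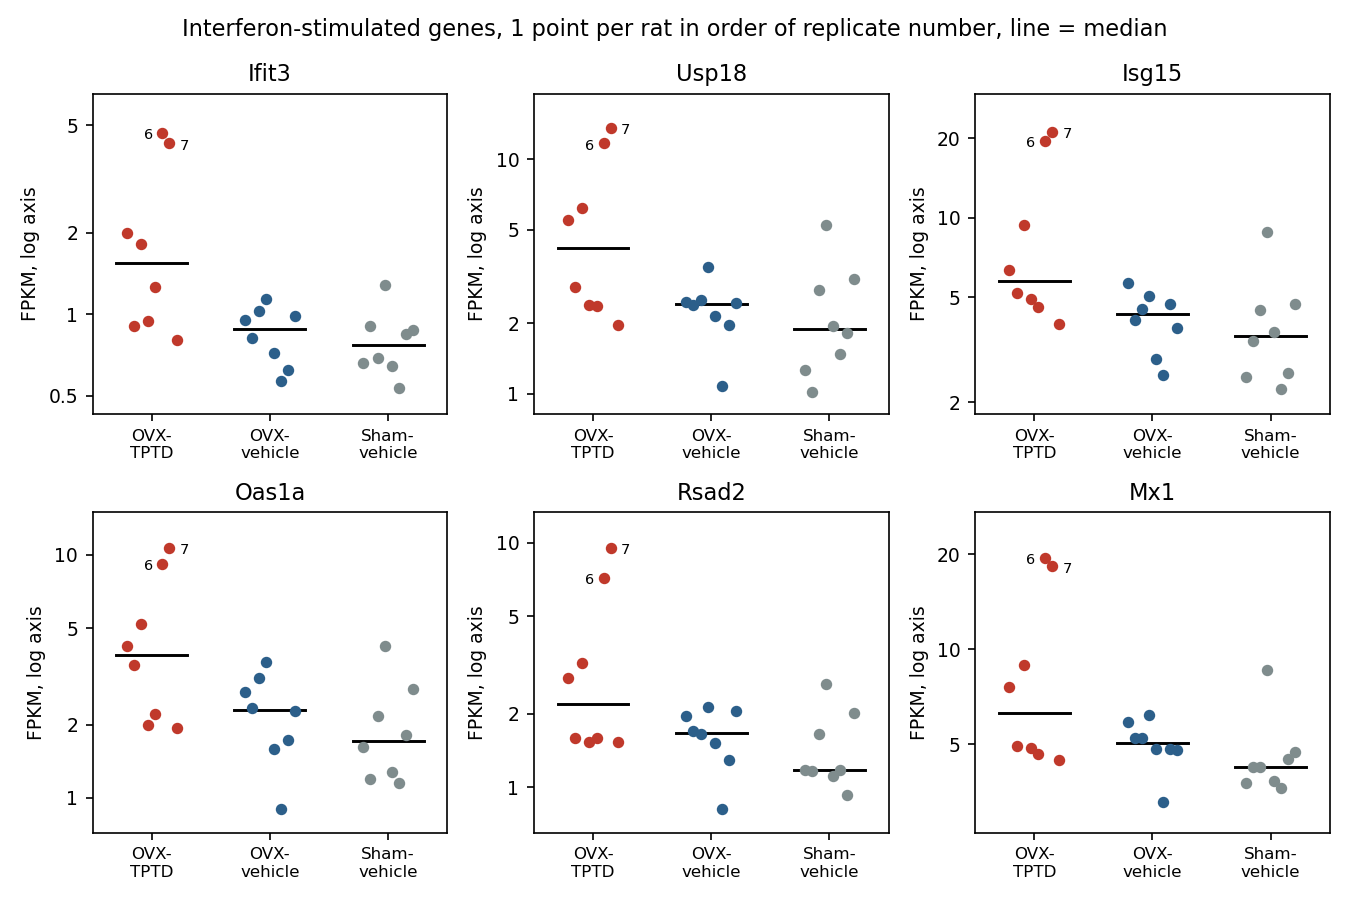
FPKM on a log axis of 6 interferon-stimulated genes in each rat, with 1 point per rat in order of replicate number from left to right in each group and the median as a line (n = 8 per group). Replicates 6 and 7 of the OVX-TPTD group are numbered and lie above every other OVX-TPTD, OVX-vehicle and Sham-vehicle rat in all 6 genes, as for Usp18, at 11.7 and 13.6 FPKM.

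A pair of genes among the 10 higher ones with the smallest edgeR p lie on chromosome 18 of rn6. RGD1309362 (55483059 to 55508712), annotated as similar to an interferon-inducible GTPase, ranged from 3.51 to 8.48 FPKM in OVX-TPTD rats (median 7.10), from 2.08 to 4.96 FPKM in OVX-vehicle rats (median 3.97), and from 3.59 to 7.08 FPKM in Sham-vehicle rats (median 4.22). Of the OVX-TPTD rats, 6 of 8 lay above the highest OVX-vehicle rat, and the log2 difference was 0.81 (SE 0.19, exact p = 0.00575), or 0.69 without replicates 6 and 7. MGC105567 (55685613 to 55704910), for which the files give no function, had medians of 5.77 FPKM in OVX-TPTD rats and 4.75 FPKM in OVX-vehicle rats and a difference of 0.32 (SE 0.083, exact p = 0.00124). Parp3, an ADP-ribosyltransferase of the response to DNA breaks, had a log2 difference of 0.24 (SE 0.065, exact p = 0.00466). The serine protease gene Tmprss2 was measured from few reads, between 0.0798 and 0.955 FPKM in OVX-TPTD rats and between 0.0472 and 0.209 FPKM in OVX-vehicle rats, with 1.68 (SE 0.47).

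The gene with the smallest edgeR p was Bdnf, which encodes brain-derived neurotrophic factor, a ligand of the receptor TrkB made by a part of the sensory neurons. Its locus is on chromosome 3 (100768637 to 100819214 in rn6). Bdnf ranged from 4.02 to 5.91 FPKM in OVX-TPTD rats (median 5.09), from 3.38 to 4.44 FPKM in OVX-vehicle rats (median 3.85), and from 2.55 to 3.87 FPKM in Sham-vehicle rats (median 3.37). All 8 OVX-TPTD rats lay above the OVX-vehicle median and 6 lay above the highest OVX-vehicle rat. The log2 difference was 0.38 (SE 0.083, exact p = 0.00109), with an adjusted p of 0.995 in edgeR and 0.0650 in DESeq2. Without replicates 6 and 7 of the OVX-TPTD group it was 0.31, and without OVX-vehicle replicate 1 it was 0.36. The OVX-vehicle group stood 0.18 above the Sham-vehicle group in the same fit, which shares the OVX-vehicle rats. Between the OVX-TPTD and Sham-vehicle groups Bdnf rose by 0.56 (adjusted p = 0.00565 in edgeR), 1 of 4 genes called in that comparison (0.0316% of those tested).

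Among the neurotrophin and receptor genes that passed the count filter of edgeR, no other stood higher. Of the 10 entries tested among neurotrophins and their receptors, 4 were positive, Bdnf alone stood higher at an unadjusted edgeR p under 0.05 and the sortilin-family receptor gene Sorcs1 alone stood lower (−0.13, SE 0.060, exact p = 0.0286). With 1 rat left out at a time Bdnf stayed the only higher entry, while 0 to 2 entries stood lower. Ntf3, the ligand of TrkC, was too low for the edgeR test. It ranged from 0.252 to 0.423 FPKM in OVX-TPTD rats (median 0.296) and from 0.103 to 0.374 FPKM in OVX-vehicle rats (median 0.201), with an exact permutation p of 0.0141.

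Bdnf and Ntf3 are 2 of the 7 genes that the study lists for TPTD, and since it chose them on these rats their values are not independent evidence. By quantitative PCR against Gapdh, the study also reported Ntf3, Bdnf, Il11, Il2rg and Stoml3 higher and P2rx1 and Kcnj5 lower with TPTD. Il2rg, the receptor chain shared by several interleukins, ranged from 2.91 to 4.80 FPKM in OVX-TPTD rats (median 4.11) and from 2.54 to 3.71 FPKM in OVX-vehicle rats (median 3.25), with 6 of 8 OVX-TPTD rats above the highest OVX-vehicle rat and a difference of 0.33 (SE 0.10, exact p = 0.0126). Kcnj5, a subunit of the G protein-gated potassium channel, ranged from 1.49 to 3.30 FPKM in OVX-TPTD rats (median 2.18) and from 2.07 to 4.04 FPKM in OVX-vehicle rats (median 2.84). Its difference was −0.36 (SE 0.17, exact p = 0.0384), at −0.62 in replicates 1 to 4 and −0.11 in replicates 5 to 8. P2rx1, an ATP-gated channel, had a difference of −0.30 (SE 0.20, exact p = 0.0904). The cytokine gene Il11 and the mechanotransduction gene Stoml3 were below the count filter, at medians of 0.133 and 0.246 FPKM in OVX-TPTD rats and 0.0322 and 0.148 FPKM in OVX-vehicle rats.

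**Figure D2:**
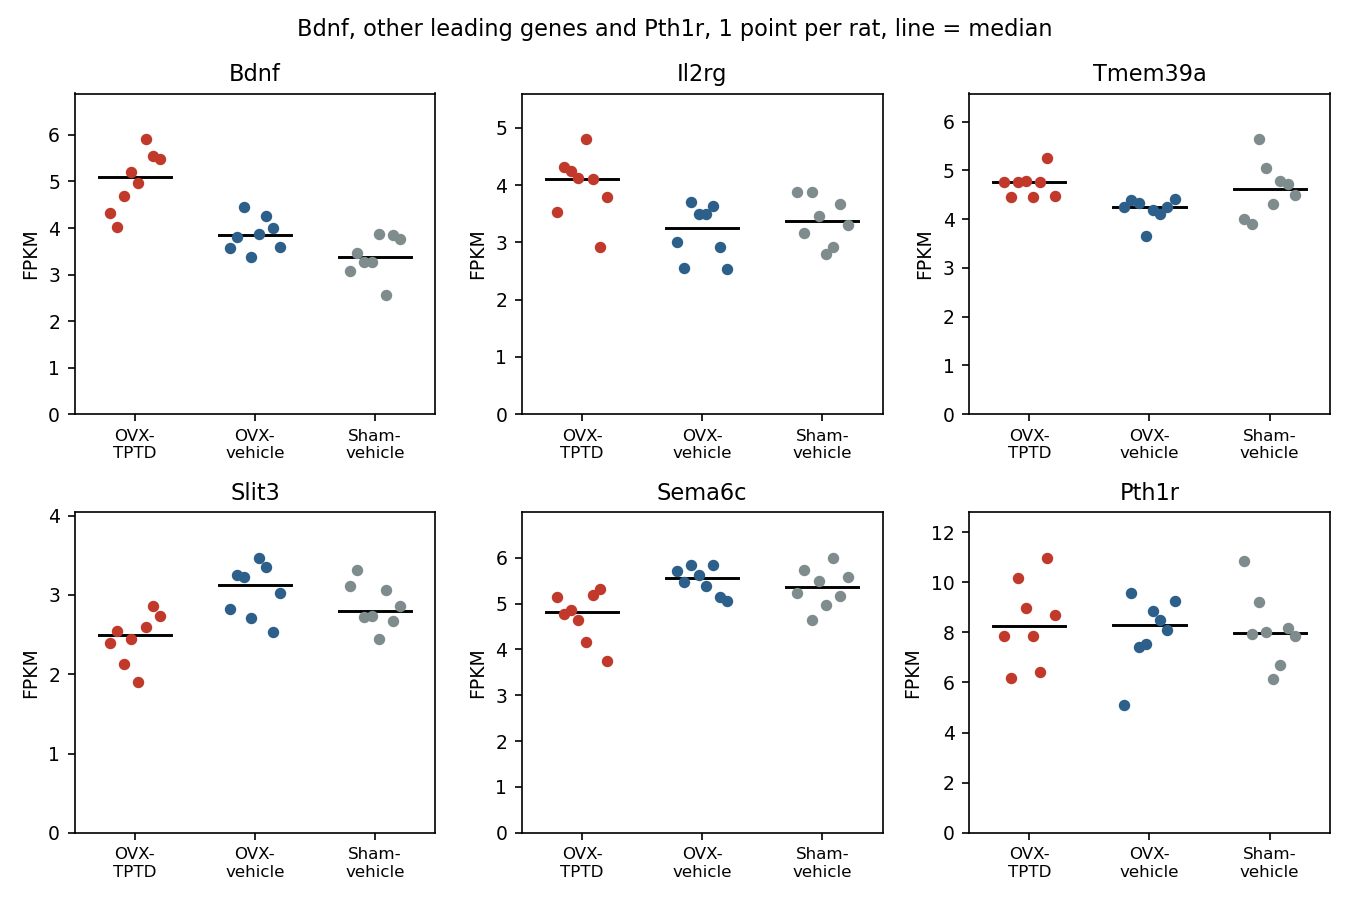
FPKM from 0 of Bdnf, Il2rg, Tmem39a, Slit3, Sema6c and Pth1r in each rat, with 1 point per rat and the median as a line (n = 8 per group). Bdnf has its median at 5.09 FPKM in OVX-TPTD rats and at 3.85 FPKM in OVX-vehicle rats, while Pth1r has almost the same median in both (8.27 and 8.28 FPKM).

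The receptor for TPTD was expressed in the ganglia of both groups, and its level did not stand apart between them. Pth1r ranged from 6.19 to 11 FPKM in OVX-TPTD rats (median 8.27) and from 5.10 to 9.56 FPKM in OVX-vehicle rats (median 8.28), and the ranges overlapped almost fully. Its log2 difference was 0.07 (SE 0.13, exact p = 0.692), and it turned to −0.01 without OVX-vehicle replicate 1. The hormone gene Pth was at 0 in all 24 rats and the ligand gene Pth2 was at 0 in all 16 OVX rats. The other receptor gene of the family, Pth2r, and the PTH-related peptide gene Pthlh were too low to test, with medians of 0.0490 and 0.417 FPKM in OVX-TPTD rats and 0.0135 and 0.266 FPKM in OVX-vehicle rats.

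Downstream of the receptor, differences were small. Of 31 genes for G protein subunits, kinases and other second messenger proteins, 9 were positive and 0 had an unadjusted edgeR p under 0.05 in either direction (median −0.02, and −0.05 without OVX-vehicle replicate 1). With 1 rat left out at a time, at most 1 of them did. Among 24 adenylyl cyclases and phosphodiesterases, 3 stood lower at an unadjusted p under 0.05, beside 1.7% of all genes, and 0 higher. The lower ones numbered 5 without OVX-vehicle replicate 1 or OVX-TPTD replicate 7, and 1 without OVX-vehicle replicate 3 or 5. Pde4d, which breaks down cyclic AMP, ranged from 4.05 to 5.13 FPKM in OVX-TPTD rats (median 4.64) and from 4.89 to 5.82 FPKM in OVX-vehicle rats (median 5.30), with 5 of 8 OVX-TPTD rats below the lowest OVX-vehicle rat. Its difference was −0.21 (SE 0.065, exact p = 0.000932). The cyclase genes Adcy5 and Adcy6 were at −0.15 (SE 0.070, exact p = 0.0763) and −0.11 (SE 0.047, exact p = 0.0132). Of 17 tested genes that respond to PTH in bone cells, 2 stood lower, the nuclear receptor gene Nr4a1 (−0.19, SE 0.076, exact p = 0.0336) and the collagenase gene Mmp13, and 0 stood higher (1 without OVX-vehicle replicate 1). Among 25 immediate early genes, 10 were positive and 3 stood lower, which were Nr4a1, Btg2 (−0.17) and the synaptic scaffold gene Homer1 (−0.10). Without OVX-TPTD replicate 7 or OVX-vehicle replicate 2, 1 of these genes stood lower, Nr4a1.

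Genes for interleukins, cytokines and their receptors were more often positive than not. Of 43 tested, 31 were positive, where 49.0% of all genes were, and the median was 0.07 (0.04 without OVX-TPTD replicate 2). Of these, 3 stood higher at an unadjusted edgeR p under 0.05, beside 1.95% of all genes, and 0 lower. Besides Il2rg these were Osmr, the receptor for oncostatin M, and Il18bp, a secreted inhibitor of interleukin 18. Osmr ranged from 4.65 to 7.79 FPKM in OVX-TPTD rats (median 5.78) and from 4.37 to 5.61 FPKM in OVX-vehicle rats (median 4.88), with a difference of 0.31 (SE 0.11, exact p = 0.00948). For Il18bp the difference was 0.27 (SE 0.11, exact p = 0.00777). Stat4, which carries interleukin 12 signals, was at 0.68 (SE 0.25, exact p = 0.0233) from a median of 0.265 FPKM in OVX-TPTD rats and 0.164 FPKM in OVX-vehicle rats. In the macrophage markers, 17 of 20 entries were positive (median 0.14, and 0.20 without replicates 6 and 7), and 1 stood higher, the interferon-inducible lectin gene Siglec1 (0.69, SE 0.26, exact p = 0.0724). Without OVX-TPTD replicate 7, 0 of them stood higher. Among the OVX rats their mean was highest in OVX-TPTD replicate 5 (0.54 relative to the OVX-vehicle mean), not in replicates 6 and 7. Sham-vehicle replicate 3 stood higher still, at 0.67. Without OVX-TPTD replicate 5 the median of the list was 0.06. The defining macrophage genes Cd68, Cd163 and C1qa had differences of 0.16, 0.04 and 0.21. The summed level of the list was 403 to 699 FPKM in OVX-TPTD rats and 425 to 577 FPKM in OVX-vehicle rats, and its part in the cytokine and interferon values was not tested.

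By count, axon guidance genes had the most lower members of any list, but the list is a long one. The shorter Schwann cell and myelin list had 4 lower of 19 tested, a larger share. The proteins they encode attract or repel growing axons. Of 54 entries tested, 21 were positive and 7 stood lower at an unadjusted edgeR p under 0.05, beside 1.7% of all genes, with 0 higher. Slit3, a secreted ligand of Robo receptors, ranged from 1.91 to 2.87 FPKM in OVX-TPTD rats (median 2.5) and from 2.53 to 3.47 FPKM in OVX-vehicle rats (median 3.13). All 8 OVX-TPTD rats lay below the OVX-vehicle median and 4 lay below the lowest OVX-vehicle rat, with a difference of −0.31 (SE 0.083, exact p = 0.00342). Sema6c, a transmembrane semaphorin, ranged from 3.75 to 5.32 FPKM in OVX-TPTD rats (median 4.82) and from 5.06 to 5.85 FPKM in OVX-vehicle rats (median 5.55). Here 5 OVX-TPTD rats lay below the lowest OVX-vehicle rat, and the difference was −0.22 (SE 0.066, exact p = 0.00186). Another semaphorin gene, Sema4g, was at −0.24 (SE 0.077, exact p = 0.0103). Without OVX-vehicle replicate 1 or OVX-TPTD replicate 7, 11 members stood lower, and without OVX-TPTD replicate 4 or OVX-vehicle replicate 6, 5 did. The list median was −0.03 with all rats, 0.02 in replicates 1 to 4 and −0.10 in replicates 5 to 8, so that the list as a whole was not lower in both sets of numbers.

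Myelinating Schwann cells insulate the large sensory axons within the ganglion. Among the 19 Schwann cell and myelin entries tested 0 had a positive log2 difference (median −0.12), where 6201 of 12645 genes were positive. Of the 19, 4 stood lower at an unadjusted edgeR p under 0.05, beside 1.7% of all genes. Gjb1, which encodes the gap junction protein connexin 32, ranged from 3.97 to 5.77 FPKM in OVX-TPTD rats (median 5.03), from 4.92 to 7.61 FPKM in OVX-vehicle rats (median 6.23), and from 4.81 to 6.46 FPKM in Sham-vehicle rats (median 5.47). All 8 OVX-TPTD rats lay below the OVX-vehicle median, and the difference was −0.33 (SE 0.094, exact p = 0.00761). Prx, the periaxin gene that stabilises the myelin sheath, ranged from 88.8 to 116 FPKM in OVX-TPTD rats (median 97.3) and from 86.9 to 147 FPKM in OVX-vehicle rats (median 117), with −0.24 (SE 0.085, exact p = 0.0311). The tight junction gene Cldn19 was at −0.23 (SE 0.078, exact p = 0.0165). The abundant myelin genes differed less, with −0.12 for Pmp22 and −0.04 for Mbp. Set against the Sham-vehicle group, the OVX-vehicle group had a median of 0.14 over the same list. Those 2 comparisons share the OVX-vehicle rats, so they are given side by side only.

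OVX-vehicle replicate 1 had the highest Prx and Cldn19 of its group, and without it the differences were −0.30 for Gjb1, −0.19 for Prx and −0.19 for Cldn19, and the list median was −0.08. The mean of the list per rat, relative to the OVX-vehicle mean, ran between −0.20 and −0.02 in OVX-TPTD rats and between −0.24 and 0.18 in OVX-vehicle rats, whose spread covered that of the treated rats. The summed level of the 19 genes was 3851 to 4795 FPKM in OVX-TPTD rats and 3863 to 5609.6 FPKM in OVX-vehicle rats. Satellite glial markers, by comparison, had a median of 0.0022 with 7 of 13 positive, and neuron markers of large fibres one of −0.05 (−0.09 without OVX-vehicle replicate 1) with 1 of 12 positive.

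**Figure D3:**
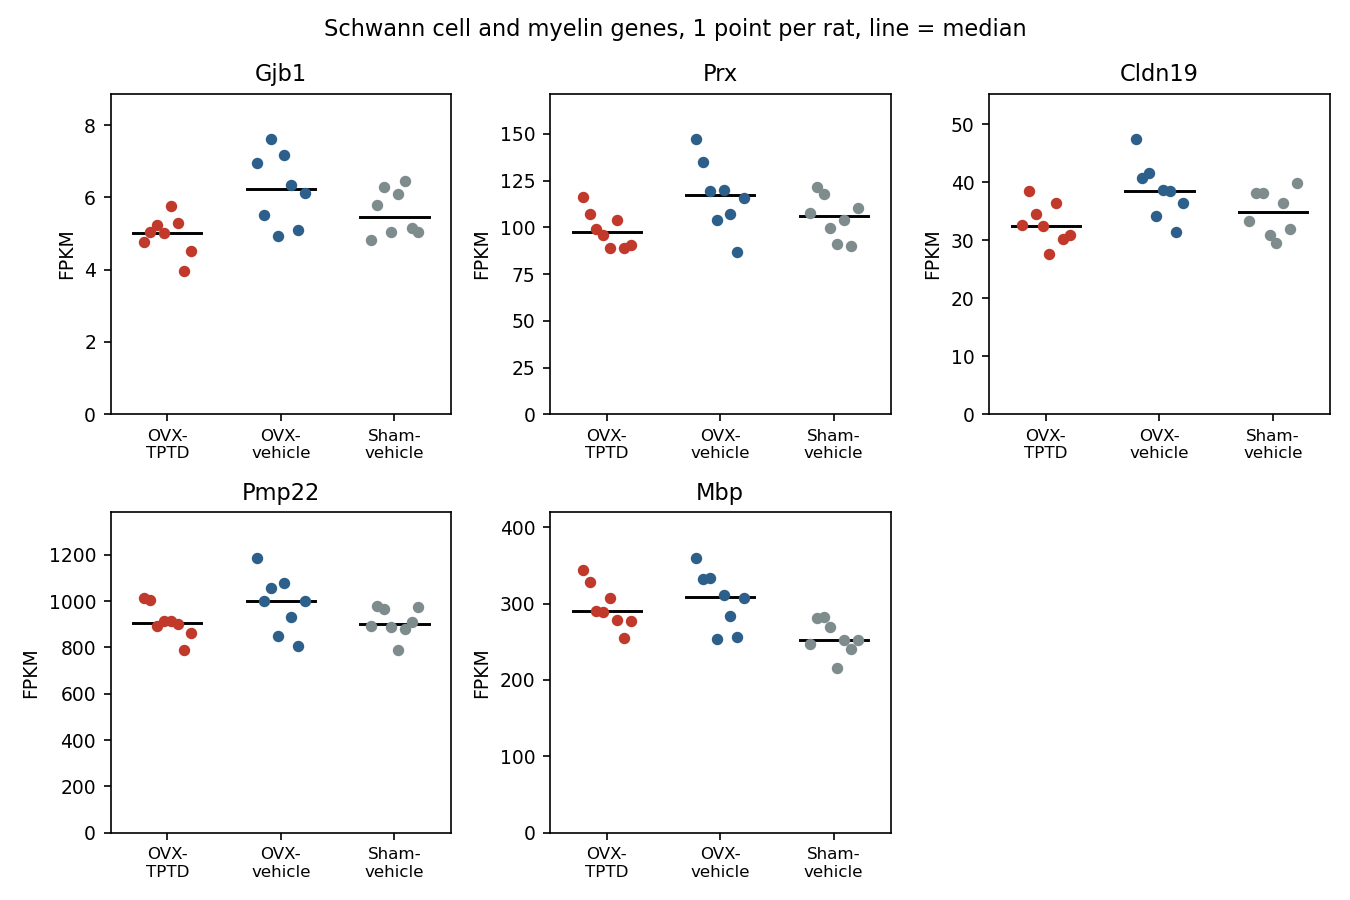
FPKM from 0 of 5 Schwann cell and myelin genes in each rat, with 1 point per rat and the median as a line (n = 8 per group). All 5 medians of OVX-TPTD rats are the lower ones, as for Gjb1 (5.03 and 6.23 FPKM) and Mbp (289.9 and 309 FPKM), and the ranges overlap in each.

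A few genes with large differences lay at distinct levels from rat to rat. RT1-CE16, a class I gene of the rat MHC on chromosome 20, was at 0.237 to 1.07 FPKM in all 8 OVX-TPTD rats. In the OVX-vehicle group it was at 32.6 to 61.6 FPKM in 3 rats (replicates 3, 4 and 6) and at 0.327 to 1.59 FPKM in the other 5, and in Sham-vehicle rats at 27.5 and 34.7 FPKM in 2 rats. So no rat had a level between 1.61 and 27.5 FPKM. The log2 difference was −5.14 (SE 1.31, exact p = 0.0491), with an adjusted p of 0.995 in edgeR and 0.0235 in DESeq2. The same 3 OVX-vehicle rats were highest in the class II gene RT1-Bb, at 8.13 to 17.1 FPKM, where the 8 OVX-TPTD rats reached at most 2.75 FPKM (−1.81, SE 0.59, exact p = 0.143). RT1-CE3 was highest in the same 3 rats (−0.82, SE 0.30, exact p = 0.0393).

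Other members of the family ran the other way. RT1-T24-3 ranged from 6.81 to 20.2 FPKM in OVX-TPTD rats (median 10.3) and from 1.95 to 9.94 FPKM in OVX-vehicle rats (median 6.82), with a difference of 0.80 (SE 0.25, exact p = 0.0115). RT1-T24-4 was at 0.62 (SE 0.24, exact p = 0.0357) and RT1-T24-1 at 0.36 (SE 0.15, exact p = 0.0326), and both T24-3 and T24-4 were highest in OVX-TPTD replicate 7. Of 33 RT1 entries tested, 5 stood higher and 3 lower at an unadjusted edgeR p under 0.05, beside 1.95% and 1.7% of all genes, with a median of 0.07. Of the 33 entries, 2 stood higher without OVX-TPTD replicate 7 and 0 without replicates 6 and 7, where the median was 0.03. The lower ones numbered 5 without OVX-TPTD replicate 2 or 7 or OVX-vehicle replicate 8. RT1 genes are many and near-identical in places, and reads of one allele may be assigned to another copy of the reference, so the level of a single member is uncertain. Mmp13 had the same kind of pattern in partly different rats. It was at 3.85 to 4.50 FPKM in 3 OVX-vehicle rats (replicates 3, 4 and 8), at 3.99 to 7.73 FPKM in 3 Sham-vehicle rats, and at most 1.03 FPKM in all others, the 8 OVX-TPTD rats included (−1.71, SE 0.60, exact p = 0.0306). Mmp13 is a collagenase of cartilage and bone, and a PTH target in osteoblasts. Ifit1 was near 0, from 0.0229 to 0.0728 FPKM, in OVX-TPTD replicates 1, 3 and 4, and reached 8.45 FPKM in OVX-TPTD replicate 7. It was also near 0 in 1 OVX-vehicle rat (0.0783 FPKM) and in 3 Sham-vehicle rats (at most 0.0510 FPKM). Fcrl2, an Fc receptor-like gene, ran the opposite way, at 2.27 to 15.4 FPKM in 4 OVX-TPTD rats (replicates 1, 3, 5 and 6), at most 0.568 FPKM in all 8 OVX-vehicle rats, and 3.18 to 27.4 FPKM in 4 Sham-vehicle rats. Its log2 difference was 3.63 (SE 1.10, exact p = 0.0545). These patterns were picked out after the values had been seen.

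**Figure D4:**
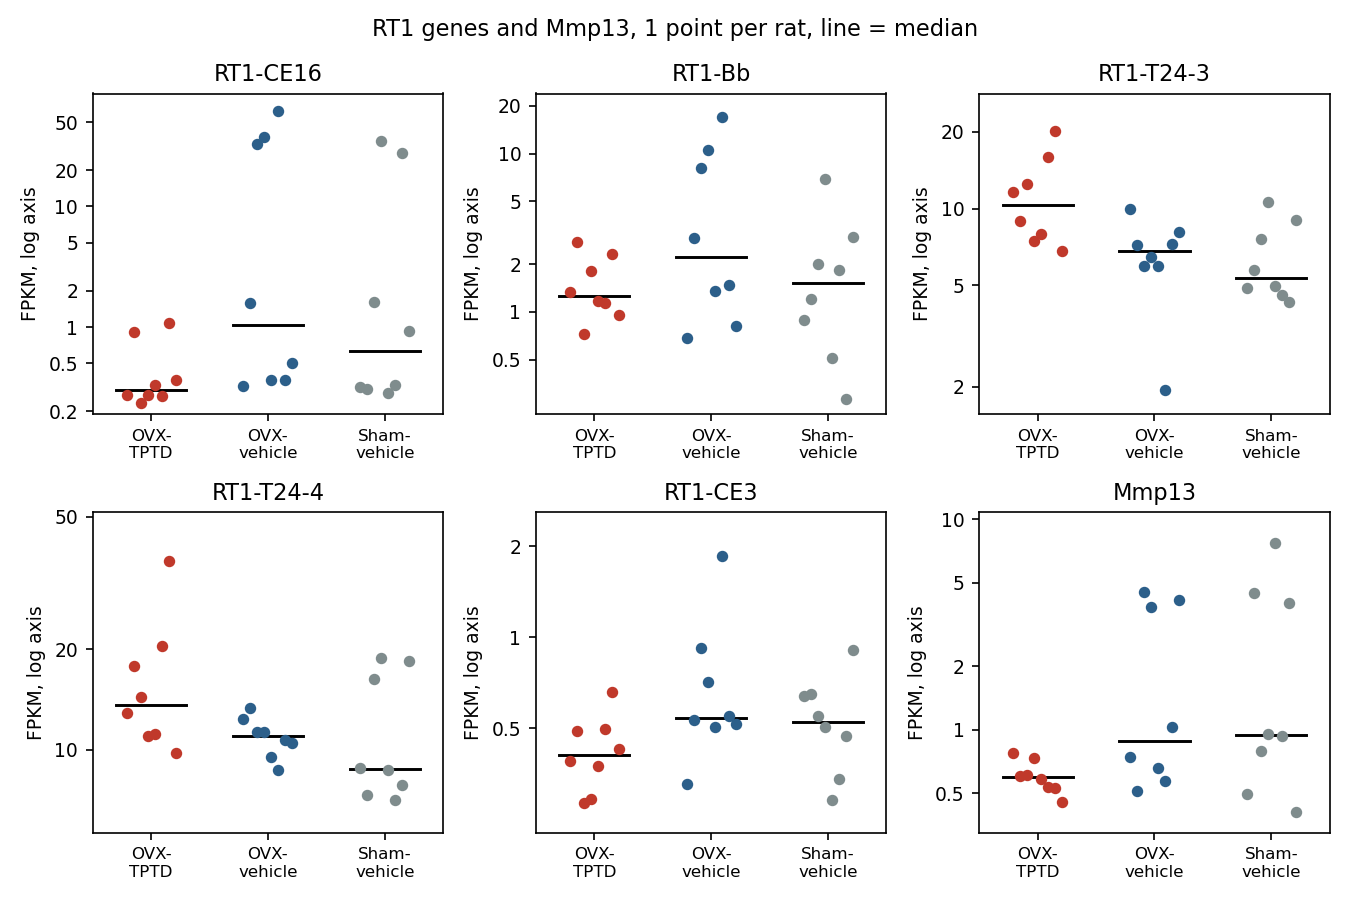
FPKM on a log axis of 5 RT1 genes and Mmp13 in each rat, with 1 point per rat and the median as a line (n = 8 per group). RT1-CE16 is at or above 27.5 FPKM in 0 OVX-TPTD, 3 OVX-vehicle and 2 Sham-vehicle rats, and Mmp13 is above 1.03 FPKM in 0, 3 and 3 rats of the same groups.

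Sensory signalling genes showed scattered differences. Nppb, a peptide of itch neurons, ranged from 1.15 to 3.81 FPKM in OVX-TPTD rats (median 2.32) and from 0.514 to 2.77 FPKM in OVX-vehicle rats (median 1.23), with a difference of 0.76 (SE 0.34, exact p = 0.0402) that was 1.67 in replicates 5 to 8 and −0.06 in replicates 1 to 4. The prostaglandin E2 receptor genes Ptger1 and Ptger3 were at −0.28 (SE 0.11, exact p = 0.0477) and −0.35 (SE 0.13, exact p = 0.0256), and 0 of the other 15 prostanoid entries stood apart. Without OVX-vehicle replicate 5, the highest rat of its group in Ptger1, Ptger3 alone stood lower. Trpv4, a channel opened by cell swelling, was at −0.34 (SE 0.15, exact p = 0.0177) from medians of 0.307 FPKM in OVX-TPTD rats and 0.406 FPKM in OVX-vehicle rats. Of 17 sensory neuropeptide genes only Nppb stood higher at an unadjusted edgeR p under 0.05, and Calca, which encodes the nociceptor peptide CGRP, was at 0.14. The higher ones numbered 2 without OVX-vehicle replicate 1, 3 without OVX-vehicle replicate 3, and 0 without OVX-TPTD replicate 6 or 8, OVX-vehicle replicate 4, 5 or 7, or OVX-TPTD replicates 6 and 7 together. Neuropeptide and opioid receptors (31 tested), monoamine and cannabinoid receptors (24) and purinergic receptors (18) had 0 genes past an unadjusted p of 0.05 in either direction. With 1 rat left out at a time, at most 2 genes in each direction were past it in the first of these lists, 1 in the second and 1 in the third.

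Calcium, matrix, Wnt and some other lists had few members apart. The calcium pump gene Atp2a3 ranged from 3.07 to 3.84 FPKM in OVX-TPTD rats (median 3.29) and from 3.30 to 4.88 FPKM in OVX-vehicle rats (median 4.13), with a difference of −0.29 (SE 0.10, exact p = 0.00622). Rspo3, a secreted activator of Wnt signalling, had medians of 1.03 FPKM in OVX-TPTD rats and 0.648 FPKM in OVX-vehicle rats and a difference of 0.62 (SE 0.24, exact p = 0.0309), with 1.14 FPKM in Sham-vehicle rats. The collagen genes Col2a1 and Col23a1 were at −0.39 (SE 0.12, exact p = 0.00808) and −0.22 (SE 0.071, exact p = 0.0131). Of 25 collagen entries tested, 13 were positive, with a median of 0.0051. At an unadjusted edgeR p under 0.05, 3 of them stood lower and 1 higher, beside 1.7% and 1.95% of all genes. Spint1, an inhibitor of epithelial serine proteases, ranged from 0.224 to 2.0 FPKM in OVX-TPTD rats (median 0.699) and from 0.559 to 2.51 FPKM in OVX-vehicle rats (median 1.93), with −1.06 (SE 0.36, exact p = 0.0171). Star, the cholesterol carrier of steroid synthesis, stood higher at 0.55 (SE 0.21, exact p = 0.00482) from medians of 0.597 FPKM in OVX-TPTD rats and 0.396 FPKM in OVX-vehicle rats. Ndufa4l2, a mitochondrial protein gene induced by low oxygen, was at −0.46 (SE 0.15, exact p = 0.00761), with −0.76 in replicates 1 to 4 and −0.16 in replicates 5 to 8.

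Some further lists had few members apart, and only a part of these lists leaned one way. At an unadjusted edgeR p under 0.05, 1.95% of all genes stood higher and 1.7% lower. Of 23 chemokine entries, 13 were positive (median 0.03) and 2 stood higher at that p (1 without OVX-TPTD replicate 1 or 6). Cxcl10, a chemokine induced by interferons, ranged from 2.13 to 9.33 FPKM in OVX-TPTD rats (median 3.67) and from 2.12 to 3.95 FPKM in OVX-vehicle rats (median 2.76), with 0.61 (SE 0.24, exact p = 0.122) and 0.19 without replicates 6 and 7. Ccl21, which guides T cells and dendritic cells, ranged from 0.796 to 22 FPKM in OVX-TPTD rats (median 6.21) and from 2.09 to 6.11 FPKM in OVX-vehicle rats (median 3.31), with 1.12 (SE 0.47, exact p = 0.460), at 1.63 in replicates 1 to 4 and 0.23 in replicates 5 to 8. In the Wnt list 15 of 42 were positive, and besides Rspo3 its relative Rspo1 (0.35, SE 0.17, exact p = 0.0822) and the Wnt inhibitor gene Dkk2 (0.45, SE 0.19, exact p = 0.0371) stood higher. Without OVX-TPTD replicate 2, 0 of the 42 did. Cholesterol synthesis genes were positive in 3 of 22 entries (median −0.05), with Stard4, a sterol carrier, the 1 that stood lower, at −0.13 (SE 0.063, exact p = 0.0460). Without OVX-vehicle replicate 1, 4 stood lower, and without OVX-TPTD replicate 5 or OVX-vehicle replicate 3, 6 or 7, 0 did. Of the 22, 8 were positive without OVX-TPTD replicates 6 and 7. Heat shock and chaperone genes were positive in 22 of 32 (median 0.06), with the cochaperone gene Dnajb4 higher at 0.13 (SE 0.049, exact p = 0.00404). Without OVX-TPTD replicate 2 or 7, 3 members of that list stood higher, Dnajb4 among them. Clock genes (9 of 15 positive) and ribosomal protein genes (75 of 108) had 0 members past an unadjusted p of 0.05. The clock median of 0.12 was 0.05 without OVX-vehicle replicate 1 and 0.03 without OVX-TPTD replicates 6 and 7, and the ribosomal median of 0.02 was 0.07 and 0.08 in the same fits.

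A single entry had FPKM ranges that did not overlap between the 2 groups (0.00768% of 13024). Tmem39a, a transmembrane protein of the endoplasmic reticulum, ranged from 4.46 to 5.25 FPKM in OVX-TPTD rats (median 4.76), from 3.66 to 4.41 FPKM in OVX-vehicle rats (median 4.24), and from 3.90 to 5.64 FPKM in Sham-vehicle rats (median 4.61). The difference was small, 0.17 (SE 0.066, exact p = 0.000155), where the p is the smallest that the 16 rats allow, and the Sham-vehicle rats reached into both ranges. After adjustment over the 13024 entries, Tmem39a included, the smallest p of the permutation test was 0.998. The remaining lower genes with the smallest edgeR p had modest differences. They were the small GTPase gene Arl10 (−0.32, SE 0.088, exact p = 0.00218), Tctn1 of the transition zone of the primary cilium (−0.26, SE 0.077, exact p = 0.0107), the rhomboid protease gene Rhbdl3 (−0.22, SE 0.069, exact p = 0.00513), the mitochondrial aldehyde dehydrogenase gene Aldh2 (−0.14, SE 0.045, exact p = 0.0127) and Mypn, a sarcomere protein at medians of 0.0564 FPKM in OVX-TPTD rats and 0.136 FPKM in OVX-vehicle rats (−1.05, SE 0.33, exact p = 0.0283).

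Markers of tissue that can be carried along in dissection were also followed. Skeletal muscle markers had 1 of 13 entries positive and a median of −0.28, which became −0.07 without OVX-vehicle replicate 5, the rat with the highest mean of the list (0.83 above its group). The muscle actin gene Acta1 ranged from 2.23 to 3.16 FPKM in OVX-TPTD rats (median 2.61) and from 2.54 to 4.98 FPKM in OVX-vehicle rats (median 3.16). Fibroblast and meningeal markers had 14 of 16 entries positive (median 0.11, and 0.06 without OVX-TPTD replicate 1), at 0.26 in replicates 1 to 4 and −0.01 in replicates 5 to 8. All 6 red cell entries tested were positive (median 0.28), with 0 at an unadjusted p under 0.05. In the epithelial list the keratin genes Krt5 and Krt14 were near 0, at medians of 0.178 and 0.0843 FPKM in OVX-TPTD rats and 0.238 and 0.0167 FPKM in OVX-vehicle rats. Endothelial markers (4 of 19 positive, median −0.06) and subunits of the mitochondrial respiratory chain (27 of 56 positive, median −0.0022) had 0 members past an unadjusted p of 0.05. The red cell median was 0.50 without OVX-TPTD replicates 6 and 7, 0.43 without OVX-vehicle replicate 1 and 0.09 without OVX-TPTD replicate 3. Without OVX-TPTD replicate 1 or 6, 2 endothelial markers stood lower, and with 1 rat left out 14 to 49 of the respiratory chain entries were positive. Whether any of these markers had a part in the differences above was not tested.

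**Figure D5:**
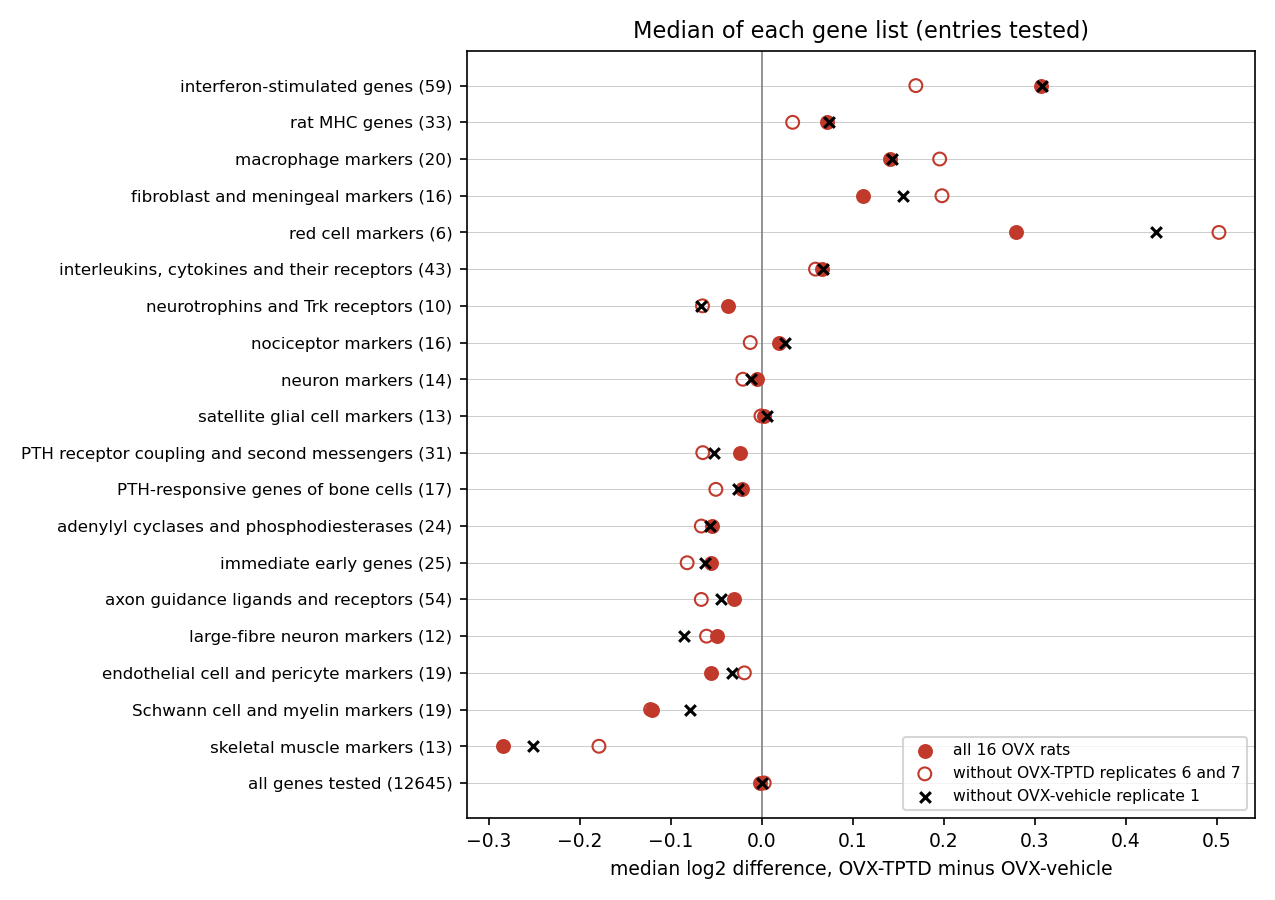
Median log2 difference, OVX-TPTD minus OVX-vehicle, of the gene lists shown, with the number of entries tested in brackets, over all 16 rats (filled), without OVX-TPTD replicates 6 and 7 (open) and without OVX-vehicle replicate 1 (crosses). The interferon list lies at 0.31 with all rats and 0.17 without replicates 6 and 7, the Schwann cell and myelin list at −0.12, and all genes tested at −0.0020.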

How the data were processed

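RNA of L4-5 DRG from 24 rats (8 per group) was sequenced as stranded libraries. The authors aligned reads with TopHat2 2.0.14 to rn6 and deposited, per gene, expected counts and FPKM values, made in Genedata software. Of the deposited expected counts, 86.4% were whole within 0.001, and all were rounded before the count test. Totals per rat are given with the results.

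Counts of all 24 rats were fitted together with edgeR 4.0.16 in R 4.3.3 (filterByExpr, TMM, quasi-likelihood test, Benjamini-Hochberg adjustment), with OVX-TPTD minus OVX-vehicle as contrast. Limma 3.58.1, DESeq2 1.42.0 and sva 3.50.0 served as alternatives. The study compared FPKM values with thresholds of 0.05 for p and 0.25 for the absolute log2 fold change. These thresholds were used here with a two-sided exact permutation test of log2(FPKM) over the divisions of the 16 rats, for the 13024 of 17811 entries above 0 in every rat. Scripts were tested on simulated data.

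The members, gene lists and tests were chosen with earlier results of these data known. Genes named are the 10 per direction with the smallest edgeR p, the study's 7 TPTD genes, the leading 3 of each list or a part of them, the PTH receptors and ligands, entries whose groups do not overlap, the 5 per direction with the largest differences past those thresholds that averaged 1 FPKM or more, and cell type markers. Other names, among them B2m, Ifit1, Ifit2, Mx1, Rsad2, Psmb8, Irf7, Irf9, Zbp1, Ddx58, Ifih1, Tapbp, RT1-CE3, RT1-T24-1, RT1-T24-4 and Fcrl2, were chosen after their values were seen. Some genes are not reported here. Same-numbered rats of the 2 groups did not deviate together (r between 0.0091 and 0.097), and no label ties the numbers to a shared animal or day. No 2 rats of a group agreed within sampling noise. Promoter sequences were taken from RefSeq, build GRCr8.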

Additional observations from a re-analysis of the deposited data

Results flagged for a closer look

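In 166 groups of 8 rats, made of 83 genes in the OVX-TPTD and the OVX-vehicle group, 8 values lay far from the other 7 of their group. Chance alone gives about 1 in 20 groups, which is about as many. Tmem39a, whose groups did not overlap, had 1 such rat in each, with 5.25 FPKM in OVX-TPTD replicate 7 (next 4.78 FPKM) and 3.66 FPKM in OVX-vehicle replicate 4 (next 4.12 FPKM). RT1-T24-4 was at 36.9 FPKM in OVX-TPTD replicate 7, where the next rat had 20.5 FPKM. RT1-CE3 was at 1.85 FPKM in OVX-vehicle replicate 6, where the next rat had 0.918 FPKM. Ndufa4l2 was at 0.890 FPKM in OVX-TPTD replicate 4, the lowest of the group, with 1.51 FPKM in the next. OVX-vehicle replicate 5 was apart in 3 genes, the DNA repair gene Parp3 at 18.3 FPKM (next 14.7 FPKM), the prostaglandin receptor gene Ptger1 at 3.59 FPKM (next 2.78 FPKM) and the muscle actin gene Acta1 at 4.98 FPKM (next 3.43 FPKM).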

How the results depend on the processing

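Of 2470 log2 differences recomputed for 83 genes under up to 30 settings, 2459 kept their sign. The exceptions were in 4 genes. Pth1r was at −0.0069 with OVX-vehicle replicate 1 counted as Sham-vehicle, −0.011 without that rat, and −0.029 in replicates 5 to 8 alone, and between −0.011 and 0.12 with 1 rat left out (−0.0015 without OVX-TPTD replicate 7). Nppb was at −0.060 in replicates 1 to 4 alone. Mbp was at 0.0057 without OVX-TPTD replicates 6 and 7. Cd163 was at −0.067 in replicates 5 to 8 alone and between −0.062 and 0.17 with 1 rat left out, below 0 without OVX-TPTD replicate 7 or OVX-vehicle replicate 4, 6 or 7. The splits by replicate number were chosen after seeing the data. The count at an adjusted p under 0.05 was 0 in edgeR under every setting, 0 in limma and 1 in DESeq2 (RT1-CE16). The edgeR count at an unadjusted p under 0.05 (462) was 1045 without OVX-TPTD replicates 6 and 7, 697 in replicates 5 to 8 alone, and 350 (without OVX-TPTD replicate 5) to 826 (without OVX-vehicle replicate 1) with 1 rat left out, with 712 without OVX-TPTD replicate 7. The permutation count (496) was 986 without OVX-TPTD replicates 6 and 7 and 396 to 814 with 1 rat left out. Entries past the study's thresholds (195) numbered 64 on log2(FPKM + 1), 110 with those averaging under 1 FPKM left out, and 171 to 241 with 1 rat left out. Of the 12 list medians followed, those that moved by more than the SD between OVX-vehicle rats were 0.11 for interferon-stimulated genes in replicates 1 to 4 alone, −0.10 for axon guidance genes in replicates 5 to 8 alone and −0.065 for PTH receptor coupling genes without OVX-TPTD replicates 6 and 7. The skeletal muscle median (−0.28) moved by less than that SD but further in size, to −0.07 without OVX-vehicle replicate 5. With the replicate number as a block, edgeR gave 517 genes at an unadjusted p under 0.05 and 0 after adjustment, and no rat correlated best with its own number (0 of 8). The cause of these changes was not tested. Genes under about 1 FPKM rest on few reads, and differences in them are uncertain at this depth.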

Other observations

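Rats with replicate numbers 5 to 8 and those numbered 1 to 4 differed across the 3 groups in 22 of 12645 genes at an adjusted p under 0.05 in edgeR (12 higher, 10 lower in numbers 5 to 8). Each group holds 4 rats of either set, and no label gives the numbers a meaning.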
